A study of Homo sapiens with 6 samples.

Results

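The genes described here encode the NFAT transcription factors (NFATC1, NFATC2, NFATC3, NFATC4 and NFAT5), subunits of the phosphatase calcineurin (PPP3CA, PPP3CB and PPP3R1) and its regulators RCAN1 and RCAN3. They are 10 of the 56303 gene entries in the count table, taken by gene name, and all 10 passed the filter on low counts. The family was chosen by the measured difference between the groups, in particular the higher counts of NFATC4 in silenced cells, so these differences are given as a description and carry no test. RNA was sequenced from the AGS cell line, which is derived from a human gastric adenocarcinoma, in 3 libraries of cells given a small interfering RNA against SRSF2 (siSRSF2) and 3 libraries of cells labelled wild-type (WT). SRSF2 encodes a splicing factor that binds exons and promotes their inclusion. All cells were grown in the same serum-containing medium, and the labels give no time after transfection, no control siRNA for the WT cells and no word on whether replicates were separate cultures. p-values therefore set the difference between the groups against the spread between these libraries, which may be technical.

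Calcineurin is a heterodimer of a catalytic A subunit and a regulatory B subunit that is switched on by calcium and calmodulin. It removes phosphates from NFATC1 to NFATC4, which then enter the nucleus and bind DNA, often next to AP-1, until kinases rephosphorylate them and they are exported. NFAT5 shares the DNA-binding region but is not controlled by calcineurin and drives the response to high salt. RCAN proteins bind calcineurin and can inhibit it, and RCAN1 is itself a classical NFAT target. The pathway is best known from T cells and muscle, and has also been studied in epithelial tumours.

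NFAT factors recognise a GGAAA core, so the stretch upstream of the first transcription start that RefSeq lists is shown for the members with the highest and the lowest log2 fold change, NFATC4 and NFATC2, and for the internal start of RCAN1, which is known as its calcineurin-responsive start. The sequences are from RefSeq (GRCh38.p14), read 5′ to 3′ on the gene's strand. Those of NFATC4 and NFATC2 end at the base before the start. Capitals mark GGAAA or its reverse complement TTTCC. NFATC4 is shown for chr14:24366661-24366910 (plus strand), NFATC2 for chr20:51562840-51563089 (minus strand) and RCAN1 for chr21:34526964-34527072 (minus strand). The RCAN1 window is cut to the 109 bases that lie outside annotated exons of the gene. Its 141 bases nearest the start, which lie in such exons, are not shown.
NFATC4: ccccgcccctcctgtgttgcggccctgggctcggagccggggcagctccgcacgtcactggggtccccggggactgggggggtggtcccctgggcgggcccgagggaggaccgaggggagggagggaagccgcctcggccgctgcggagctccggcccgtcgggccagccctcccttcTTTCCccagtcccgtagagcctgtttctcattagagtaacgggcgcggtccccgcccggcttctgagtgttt
NFATC2: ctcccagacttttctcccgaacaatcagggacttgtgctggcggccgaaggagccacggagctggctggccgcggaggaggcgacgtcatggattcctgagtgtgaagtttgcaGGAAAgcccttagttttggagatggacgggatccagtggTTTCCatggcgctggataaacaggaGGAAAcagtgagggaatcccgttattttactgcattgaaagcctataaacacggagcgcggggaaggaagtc
RCAN1: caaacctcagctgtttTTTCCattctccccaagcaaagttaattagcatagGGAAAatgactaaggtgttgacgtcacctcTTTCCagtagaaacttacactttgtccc
The NFATC4 window shown held 1 match and the NFATC2 window shown 3 matches within 250 bases. RefSeq lists 2 further windows for NFATC4 and 1 for NFATC2 (chr20:51542720-51542969), each with 0 matches. The whole 250-base window before the internal RCAN1 start held 4 matches, of which 3 lie in the stretch shown, while the other 5 RCAN1 windows held 0. Of 35116 RefSeq windows of that length, 55.6% held at least 1 match, 7.12% at least 3 and 1.87% at least 4. RefSeq windows were found for 7 of the 10 genes, 18 windows in all, and 8 of these held a match. The NFATC4 windows had 73.2% to 78.4% G or C, and the NFATC2 windows 54.8% (the one shown) and 80.8%, against a median of 58% over all windows. A match is a string of letters and not a measured binding site.

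Total counts were 47518943 to 50021152 in WT libraries and 26610937 to 36651623 in siSRSF2 libraries. Levels are given as CPM, counts scaled to a library size of 1000000 with TMM factors, on which 3 counts correspond to 0.063 to 0.11 CPM in 1 library. SRSF2 itself was at 45.0 ± 1.19 CPM in WT and 22.7 ± 1.83 CPM in siSRSF2 cells (SD, n = 3 per group; log2 fold change -0.98, edgeR adjusted p = 4.39e-13), and its exons share positions with MFSD11 on the other strand. Among epithelial markers, KRT8 (3236 ± 156 CPM in WT) and KRT18 (1099 ± 53.5 CPM) were abundant and EPCAM was at 5.00 ± 0.500 CPM. CDH1, which encodes E-cadherin, was close to absent in WT (0.219 ± 0.0573 CPM).

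The 4 calcineurin-dependent NFAT genes went in both directions in siSRSF2 cells. NFATC4 and NFATC1 were higher, from very low WT levels, and NFATC2 and NFATC3 were lower. NFAT5 and the catalytic subunit gene PPP3CA had overlapping levels in both groups, whereas the regulatory subunit gene PPP3R1 was lower and RCAN3 was higher. In RNA from whole cultures, a change in the number of cells that express a gene and a change in RNA per cell cannot be told apart. By the edgeR quasi-likelihood fit over all 23689 tested genes, 7 of the 10 genes passed an adjusted p of 0.05, where 59.1% of all tested genes did. Of these, 3 were higher, as were 30.1% of all tested genes, and 4 were lower, as were 29%. The same 7 genes had groups that did not overlap in CPM, 3 higher and 4 lower, against 63.8% of all tested genes (32.5% higher and 31.2% lower). Their median log2 fold change was -0.07, beside 0.02 over all tested genes. Since the genes were chosen with this contrast known, nothing is read from these counts.

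**Figure D1:**
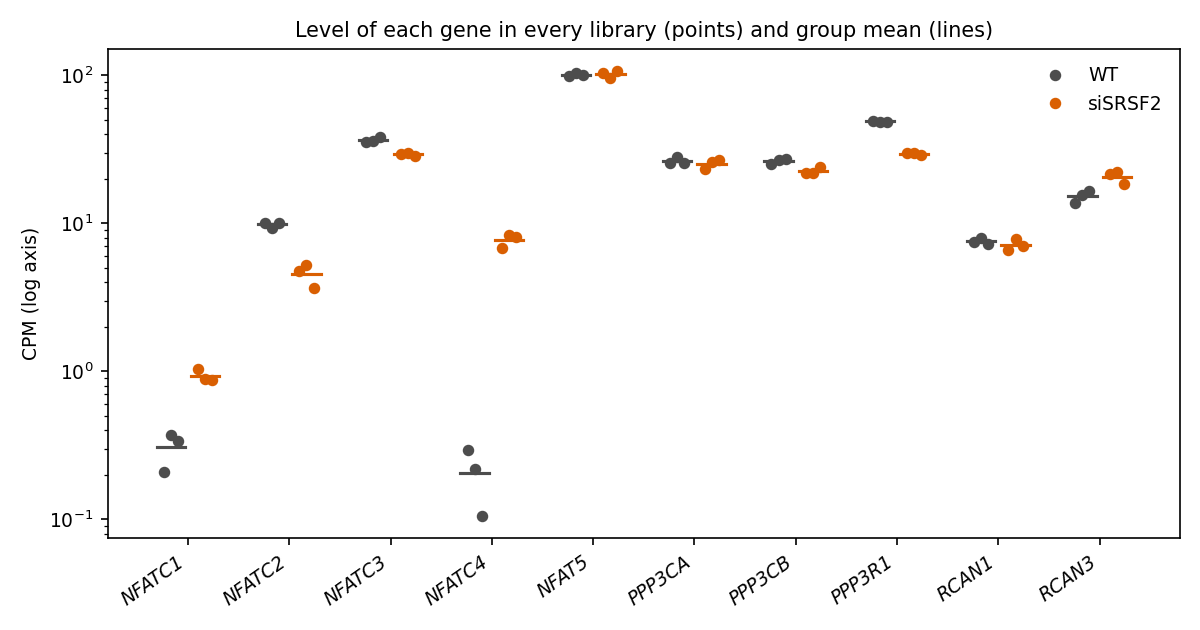
Level of each of the 10 genes in every library, in CPM on a log axis, with WT in grey and siSRSF2 in orange; points are libraries and lines are group means (n = 3 per group). The NFATC4 points of siSRSF2 cells lie between 6.77 and 8.28 CPM, and those of WT between 0.105 and 0.294 CPM.

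NFATC4 (ENSG00000100968.13) encodes a calcineurin-dependent NFAT factor also known as NFAT3. It lies on chromosome 14 at 24365673 to 24379604, plus strand, in 13 merged exons of 8437 bases. The 3 WT libraries held 14, 10 and 5 of its reads, and the 3 siSRSF2 libraries 184, 319 and 282. In CPM these are 0.294, 0.219 and 0.105 in WT and 6.77, 8.28 and 8.14 in siSRSF2. Every siSRSF2 library lay far above every WT library, and the gene went from the edge of detection to a level near that of RCAN1. The log2 fold change was 5.21 (SE 0.23), a 37.1-fold difference, and 16 of the 23689 tested genes had a higher one. It ranged from 4.89 without WT replicate 3 to 5.55 without WT replicate 1. The WT level rests on few counts and varied by 46.1% between libraries. Counting error alone gives 32.2% if every count is independent, and more if reads were counted in pairs. No other gene of the table shares exon positions with NFATC4.

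NFATC1 (ENSG00000131196.17; chromosome 18, 79395856 to 79529325, plus strand, 15 merged exons) encodes the factor NFAT2, a master regulator of osteoclasts and a driver of T-cell activation. The WT libraries held 10, 17 and 16 of its reads and the siSRSF2 libraries 28, 34 and 30. This gives levels of 0.210, 0.372 and 0.337 CPM in WT and 1.03, 0.882 and 0.866 CPM in siSRSF2. The groups did not overlap, but the gene stayed at a low level in both. The log2 fold change was 1.58 (SE 0.36), with the largest SE of the 10 genes.

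NFATC2 (ENSG00000101096.19; chromosome 20, 51386957 to 51562831, minus strand, 12 merged exons) encodes NFAT1, the main NFAT of resting T cells. It was lower in siSRSF2 cells, with 9.99, 9.37 and 10.1 CPM in WT and 4.79, 5.21 and 3.64 CPM in siSRSF2. The groups did not overlap, and siSRSF2 replicate 3 was the lowest of the 6 libraries. The log2 fold change was -1.11 (SE 0.12), or -0.97 without that library. The siSRSF2 libraries varied by 18% around their mean, against 8.1% from counting error if every count is independent, while the WT libraries varied by 4.08%.

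NFATC3 (ENSG00000072736.18; chromosome 16, 68084751 to 68229259, plus strand, 19 merged exons) encodes NFAT4, a broadly expressed member of the family. Its level was 35.7, 36.3 and 38.5 CPM in WT and 29.6, 30.0 and 28.6 CPM in siSRSF2. The groups did not overlap, with a log2 fold change of -0.33 (SE 0.060). The exons of NFATC3 share positions with 4 other entries, RP11-96D1.10 and RP11-67A1.2 on the same strand and RP11-96D1.11 and ESRP2 on the other. RP11-96D1.10 covers 15.7% and RP11-96D1.11 31.8% of its exon bases, and their log2 fold changes were -0.45 and -0.49. Reads in shared positions may have been given to either entry or to neither.

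NFAT5 (ENSG00000102908.20; chromosome 16, 69565094 to 69704666, plus strand, 17 merged exons) encodes the tonicity-responsive factor. Its level was 99.5, 104 and 100 CPM in WT and 104, 95.7 and 106 CPM in siSRSF2. The groups overlapped, with a log2 fold change of 0.01 (SE 0.049). It had the highest CPM of the 10 genes in both groups. With libraries scaled by their totals alone, its log2 fold change was 0.14. NFAT5 shares 9.68% of its exon bases with RP11-311C24.1 on the same strand and 0.372% with MIR1538 on the other.

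PPP3CA and PPP3CB encode the alpha and beta isoforms of the catalytic A subunit. PPP3CA (ENSG00000138814.16; chromosome 4, 101023409 to 101348278, minus strand, 18 merged exons) had 25.7, 28.1 and 25.7 CPM in WT and 23.1, 25.8 and 26.9 CPM in siSRSF2. The groups overlapped (log2 fold change -0.06, SE 0.069), and the sign turned positive, to 0.07, with scaling by library totals. PPP3CB (ENSG00000107758.15; chromosome 10, 73436428 to 73496024, minus strand, 15 merged exons) had 25.04, 26.7 and 27.2 CPM in WT and 21.9, 21.9 and 23.9 CPM in siSRSF2. Here the siSRSF2 libraries were all lower, by a narrow gap (log2 fold change -0.22, SE 0.067). With scaling by library totals the value was -0.09.

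PPP3R1 (ENSG00000221823.10; chromosome 2, 68178857 to 68256237, minus strand, 8 merged exons) encodes calcineurin B, the calcium-binding regulatory subunit that the catalytic subunits need for activity. Its level was 49.5, 48.4 and 48.5 CPM in WT and 29.7, 30.0 and 28.9 CPM in siSRSF2. The 3 libraries of each group lay close together, with a spread of 1.24% in WT and 1.94% in siSRSF2. Counting error alone gives more, 2.09% in WT and 3.18% in siSRSF2, so the observed spread understates the uncertainty. The groups were well apart. The log2 fold change was -0.72 (SE 0.055). PPP3R1 shares 13.7% of its exon bases with RP11-474G23.1 on the same strand, which went from 79.6 ± 1.38 to 47.8 ± 1.07 CPM (log2 fold change -0.74), and 20.8% with RP11-474G23.2 on the other strand (-0.82). The values of these entries are therefore not fully separate measurements.

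RCAN1 (ENSG00000159200.17; chromosome 21, 34513142 to 34615142, minus strand, 12 merged exons) encodes the calcineurin regulator of the Down syndrome region. Its level was 7.51, 7.99 and 7.25 CPM in WT and 6.62, 7.78 and 7.07 CPM in siSRSF2. The groups overlapped (log2 fold change -0.08, SE 0.11), and the sign turned positive, to 0.05, with scaling by library totals. The counts are per gene and join transcripts from the first and the internal start, so the sequence shown above for the internal start has no level of its own here. RCAN3 (ENSG00000117602.11; chromosome 1, 24502351 to 24541040, plus strand, 7 merged exons) encodes a related calcineurin-binding protein. Its level was 13.8, 15.6 and 16.6 CPM in WT and 21.5, 22.2 and 18.5 CPM in siSRSF2. All siSRSF2 libraries were above all WT libraries, replicate 3 least so, with a log2 fold change of 0.44 (SE 0.084). RCAN3 shares 15.2% of its exon bases with RP4-594I10.3 on the other strand, which was at 0.509 CPM in WT.

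**Figure D2:**
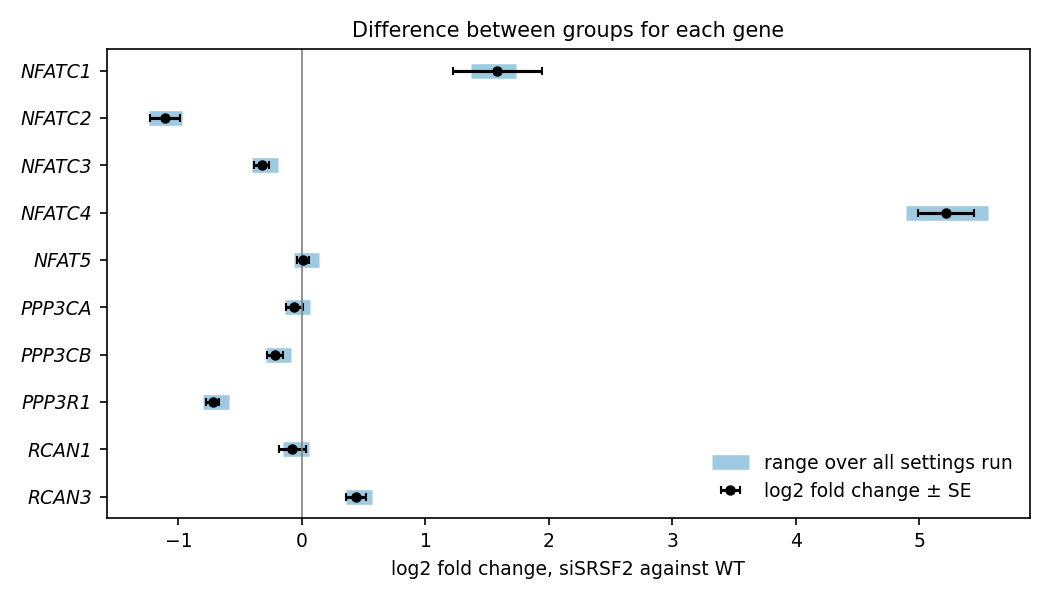
The log2 fold change of each gene (x axis, siSRSF2 against WT) with its SE as black bars, and in blue the range of the value over all settings run. NFATC4 stands at 5.21 and NFATC2 at -1.11, and the ranges of NFAT5, PPP3CA and RCAN1 include 0.

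Levels of different genes were compared as RPKM, the CPM divided by the merged exon length in kilobases. In WT cells PPP3R1 was highest (14.5 ± 0.18 RPKM), followed by NFAT5 (6.18 ± 0.16), PPP3CB (5.16 ± 0.22), PPP3CA (5.08 ± 0.264), NFATC3 (4.18 ± 0.169), RCAN3 (2.16 ± 0.202), NFATC2 (1.19 ± 0.0484) and RCAN1 (1.08 ± 0.0535). NFATC1 (0.0338 ± 0.00941 RPKM) and NFATC4 (0.0244 ± 0.0112 RPKM) came last. The libraries of 3 pairs of neighbours in this order overlapped, PPP3CB with PPP3CA, NFATC2 with RCAN1 and NFATC1 with NFATC4. In siSRSF2 cells the first 6 places held the same genes, with PPP3CA (4.85 ± 0.368) and PPP3CB (4.43 ± 0.223) exchanged and still overlapping. NFATC4 (0.916 ± 0.0986 RPKM) stood next to RCAN1 (1.02 ± 0.0836), with which it overlapped, and above NFATC2 (0.549 ± 0.0985), and NFATC1 (0.102 ± 0.01) was last. Merged exon length counts exons of every annotated transcript, so RPKM understates genes whose used transcripts are short.

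The makeup of the calcineurin-dependent NFAT pool followed from these levels. NFATC3 made up 76.2%, 77.5% and 77.5% of the summed RPKM of NFATC1 to NFATC4 in the WT libraries, and 69.2%, 66.6% and 68.4% in the siSRSF2 libraries. NFATC2 made up 21.9% ± 0.735 in WT and 11.2% ± 1.66 in siSRSF2 (SD, n = 3 per group). The share of NFATC4 was 0.655%, 0.488% and 0.221% in WT and 16.6%, 19.2% and 20.3% in siSRSF2, so that it took the second place that NFATC2 had held. NFATC1 had a share of 0.622% ± 0.171 in WT, which overlapped with that of NFATC4, and the smallest share in siSRSF2 (2.09% ± 0.229). The sum itself was 5.42 ± 0.189 RPKM in WT and 4.90 ± 0.19 RPKM in siSRSF2, so the added NFATC4 was smaller than the lost NFATC2 and NFATC3 together.

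Within calcineurin, the balance between subunit genes also differed. PPP3CC, the gene of the third catalytic isoform, of whose exon bases 10.3% are shared with RP11-582J16.4 on the other strand, was at 6.72 ± 0.582 CPM in WT and 8.87 ± 0.722 CPM in siSRSF2 (log2 fold change 0.40, SE 0.11, edgeR adjusted p = 0.00261). With it, the summed level of the 3 catalytic genes was 12.6 ± 0.214 RPKM in WT and 12.3 ± 0.318 RPKM in siSRSF2. The ratio of PPP3R1 to that sum was 1.19, 1.13 and 1.14 in the WT libraries and 0.735, 0.72 and 0.681 in the siSRSF2 libraries. This ratio was thus lower in siSRSF2 cells, with no overlap between the groups. Whether PPP3R1 stands above or below the catalytic sum depends on the merged exon lengths. It also depends on reads in the exon positions that PPP3R1 shares with other entries (13.7% and 20.8% of its exon bases). The testis isoform PPP3R2 had 2 counts in siSRSF2 replicate 3 and 0 in the other 5 libraries. The ratio of RCAN3 to RCAN1 was 2 ± 0.233 in WT and 2.87 ± 0.311 in siSRSF2, and RCAN2 had at most 4 counts in any library.

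**Figure D3:**
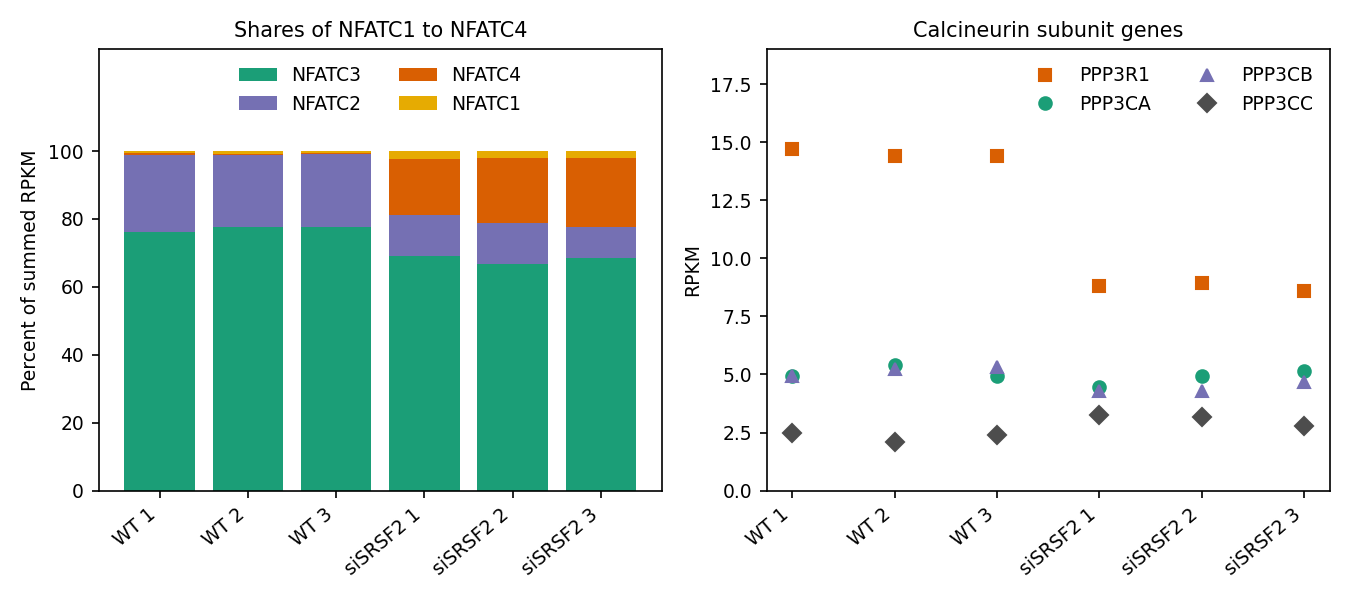
Left, the share of each gene in the summed RPKM of NFATC1 to NFATC4 in every library, as stacked percent; the NFATC4 share goes from at most 0.655% in WT to at least 16.6% in siSRSF2. Right, RPKM of the calcineurin subunit genes in every library; PPP3R1 lies between 14.4 and 14.7 in WT and between 8.60 and 8.94 in siSRSF2.

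The annotated transcripts of these genes vary widely in number. GENCODE release 29 lists 33 transcripts for NFATC4, 22 for NFATC3 and 18 for NFATC1, against 3 for PPP3R1. It classes 4 transcripts of NFATC3, 3 of NFAT5 and 1 each of NFATC1, PPP3CA and RCAN3 as targets of nonsense-mediated decay, and none of NFATC4 or NFATC2. Gene counts do not show which of them were present.

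By distance between log2 CPM profiles over the 6 libraries, each centred on its WT mean, the 5 genes most like NFATC4 were TCP11L2 (distance 0.766), RP11-414J4.2 (1.43), GIPR (1.51), CPLX3 (1.52) and LMAN1L (1.53). RP11-414J4.2, CPLX3 and LMAN1L come from a single locus. All 5 were higher in siSRSF2 cells, which the measure itself selects.

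NFATC1, NFATC2 and NFATC3 are abundant in lymphocytes, so leukocyte markers are given beside them. Of 9 such markers, 7 were too low to test, 1 rose and 1 did not pass, CD2 had no count in any library, and PTPRC, which encodes the pan-leukocyte antigen CD45, lay between 0.0422 and 0.26 CPM. Summed over the list, levels were 1.66 to 1.96 CPM in WT and 9.76 to 11.7 CPM in siSRSF2 libraries. MS4A1 and CD79A stayed at or below 0.156 CPM in every library. Of 8 fibroblast and endothelial markers, 4 rose and 2 fell, and their sum was 25.2 to 25.8 CPM in WT and 51.9 to 58 CPM in siSRSF2. PECAM1 and CDH5 were the 2 that fell, and DCN (1.01 ± 0.0359 to 5.08 ± 0.360 CPM) and COL1A1 (16.0 ± 0.249 to 35.6 ± 1.79 CPM) were among those that rose. The part of such cells in the results above was not tested.

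Upstream of calcineurin, genes of calcium entry and calmodulin changed in both directions, 9 higher and 7 lower of 21 tested (22 listed; median log2 fold change 0.07, beside 0.02 over all tested genes). Of all tested genes, 30.1% were higher and 29% lower. Of the store-operated channel genes, ORAI1 fell from 2.88 ± 0.125 to 1.40 ± 0.158 CPM (log2 fold change -1.03, edgeR adjusted p = 3.03e-05). ORAI3 rose from 0.419 ± 0.0903 to 2.17 ± 0.324 CPM (2.37, edgeR adjusted p = 2.03e-08), though 52.9% of its exon bases are shared with AC135048.13 on the same strand. STIM2, a sensor of calcium in the endoplasmic reticulum, fell from 41.3 ± 0.545 to 22.2 ± 0.945 CPM (-0.89, edgeR adjusted p = 1.09e-12), and its relative STIM1 rose (0.27, edgeR adjusted p = 0.000316). The calmodulin gene CALM2 (1077 ± 21.2 to 770.3 ± 44.5 CPM) fell, and CALM3 rose (0.19, edgeR adjusted p = 0.00244). ATP2B4, a plasma membrane calcium pump known to bind calcineurin, rose from 46.9 ± 3.34 to 114 ± 5.77 CPM (1.28, edgeR adjusted p = 1.04e-16).

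Other calcineurin subunits, inhibitors, anchors and immunophilins were 4 higher and 4 lower of 9 tested (15 listed; median log2 fold change -0.14), beside 30.1% higher and 29% lower over all tested genes. CABIN1, an inhibitor of calcineurin, rose (0.40, edgeR adjusted p = 9.01e-07), as did CHP1, a calcineurin B homologue (0.41, edgeR adjusted p = 2.45e-07). AKAP5, which anchors calcineurin at the membrane, fell from 3.82 ± 0.151 to 1.87 ± 0.291 CPM (-1.04, edgeR adjusted p = 6.18e-06). HOMER3, which competes with calcineurin for NFAT and shares 12.3% of its exon bases with AC002985.3, fell (-0.72, edgeR adjusted p = 2.97e-08), and HOMER2 rose (0.71, edgeR adjusted p = 0.000722). FKBP1A, whose protein carries the drug FK506 to calcineurin, fell from 46.0 ± 2.25 to 36.4 ± 1.31 CPM.

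Kinases that rephosphorylate NFAT and factors of its nuclear transport were 4 higher and 9 lower of 16 tested (18 listed; median log2 fold change -0.20), where 30.1% of all tested genes were higher and 29% lower. The importin gene KPNB1 (-0.50, edgeR adjusted p = 1.15e-10), the export receptor gene XPO1 (-0.45, edgeR adjusted p = 5.7e-10) and the kinase gene GSK3B (-0.39, edgeR adjusted p = 2.23e-07) fell. CSNK1E (0.46, edgeR adjusted p = 1.22e-06), DYRK1B (0.69, 0.000594) and MAPK9 (0.28, 0.000731) rose. With scaling by library totals, 4 genes of the list were lower in place of 9.

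Of 22 genes known as targets of calcineurin-dependent NFAT, mostly in immune cells, 10 were high enough to test, and 2 rose and 4 fell (median log2 fold change 0.02). Over all tested genes 30.1% rose and 29% fell. IL2, IL4 and IFNG had no count in any library. CDK6 fell from 63.7 ± 1.94 to 25.3 ± 1.82 CPM (-1.33, edgeR adjusted p = 2.45e-16) and MYC from 346 ± 5.69 to 226 ± 2.89 CPM, and both have many other regulators. NR4A1 rose from 2.81 ± 0.302 to 4.49 ± 1.07 CPM (edgeR adjusted p = 0.00156), although its exons share positions with RP11-1100L3.8 on the other strand. ACP5 rose from 0.382 ± 0.111 to 0.708 ± 0.0636 CPM (edgeR adjusted p = 0.0434), a call lost when WT replicate 2 (adjusted p = 0.161), WT replicate 3 (0.0774), siSRSF2 replicate 1 (0.0836), replicate 2 (0.1) or replicate 3 (0.0518) was left out. The ACP5 call was also lost by DESeq2 (adjusted p = 0.0808), and by edgeR with no filter (0.118) or with replicate number as a block (0.057). NR4A3 fell (-0.31, edgeR adjusted p = 0.0263). That call was lost without WT replicate 3 (0.182), siSRSF2 replicate 1 (0.0647) or siSRSF2 replicate 3 (0.103). Scaling by library totals (0.2) and a filter at a mean CPM of 1 (0.06) also lost it. CXCL8, an NFAT target in epithelial cells, had a log2 fold change of 0.63 (edgeR adjusted p = 0.201). ITPR1, which stands in this list and in that of calcium entry, was at 346 ± 4.93 and 339 ± 19.96 CPM (edgeR adjusted p = 0.593).

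Targets of NFAT5 in the response to high salt were 3 higher and 4 lower of 10 tested (13 listed; median log2 fold change -0.01), and the shares over all tested genes were 30.1% and 29%. The transporter genes SLC6A6, for taurine (138 ± 1.02 to 216 ± 6.47 CPM; 0.65, edgeR adjusted p = 1.03e-12), and SLC5A3, for myo-inositol (41.0 ± 1.38 to 53.7 ± 1.73 CPM; 0.39, edgeR adjusted p = 6.12e-07), rose. AKR1B1, the aldose reductase that makes sorbitol, was at 47.8 ± 0.830 and 48.8 ± 2.35 CPM (edgeR adjusted p = 0.67). HSPA4L (-0.85), HSPA1A (-3.01) and HSPA1B (-2.80) fell, and these chaperone genes also respond to heat shock factors. HSPA1A and HSPA1B are near-identical copies, between which reads may have been divided arbitrarily.

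**Figure D4:**
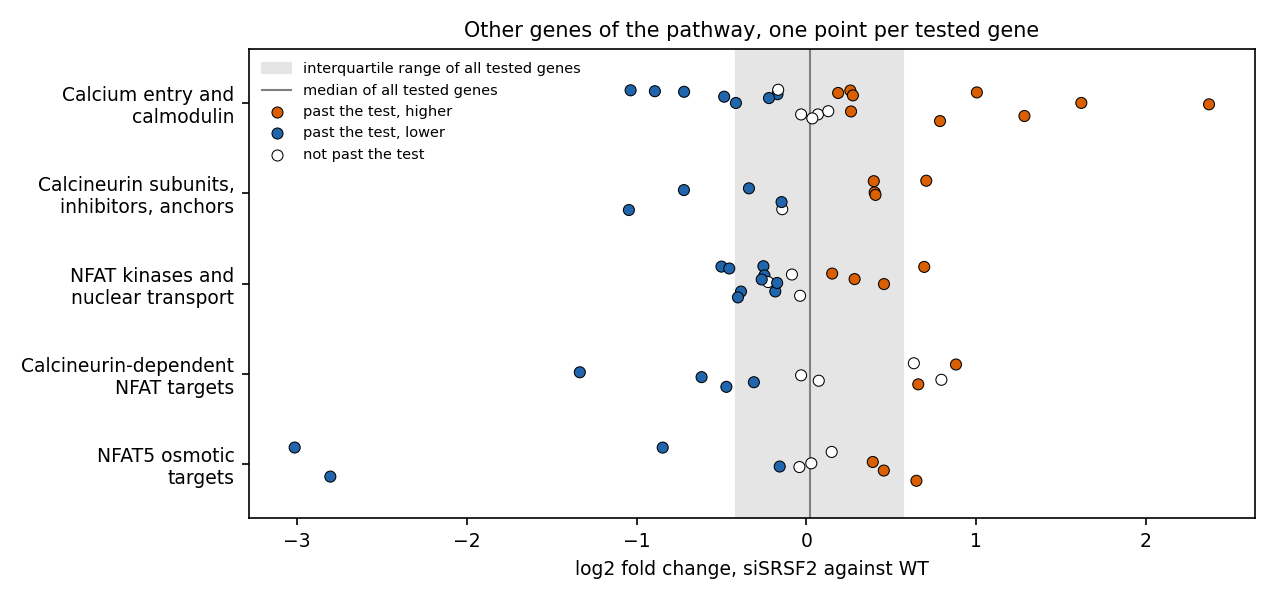
Log2 fold change (x axis) of every tested gene in the 5 lists of pathway genes (y axis), orange or blue where the edgeR adjusted p was below 0.05 and white otherwise; the grey band and line are the interquartile range and the median of all tested genes. Each list has genes on both sides of 0, from HSPA1A at -3.01 to ORAI3 at 2.37.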

How the data were processed

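A single deposited table gives unnormalized read counts by gene name for 6 libraries, with exon positions and merged exon length, per the file headers. HISAT2 2.0.5, featureCounts 1.5.0-p3 and the mouse build mm10 are named, per the submitters' processing notes, but the table holds human genes, and all 10 members have the same span in GENCODE release 29 (GRCh38). How strand and multi-mapping reads were handled is not stated in the sources used here.

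Counts were analysed with edgeR 4.0.16 in R 4.3.3 (filterByExpr with minimum count 10, TMM scaling, robust quasi-likelihood F test, group as the only term, Benjamini-Hochberg over 23689 genes). SE is the size of the log2 fold change divided by the square root of F. Every pair of replicates differed by more than the sampling noise of independent counts (chi-square of 3.83 to 8.75 per gene). Floors of 3 counts cover counting error only, and counting error is given as if every count were independent. Some low genes had even counts in every library, such as ITGAM (6, 6 and 8 in WT, 4, 4 and 6 in siSRSF2), while others had odd ones. If both reads of a pair were counted, counting error is larger than given. The fit was tested on simulated counts of this comparison with 23065 genes. There 54% of 50 genes changed 1.5-fold, 80% of 50 changed 2-fold and 94% of 50 changed 4-fold were recovered. Of the calls in that simulation, 5.78% were false. Only the planted genes were changed there, whereas 59.1% of tested genes passed in the real comparison. These rates may therefore not hold for the real data. Members, gene lists and the rule for named genes were chosen with earlier results of these data known. Besides SRSF2 and the members, up to 3 genes higher and 3 lower with the smallest p were selected in each list, plus genes nearest to NFATC4 and genes sharing its family's exons. STIM1, ORAI1, CALM3, PPP3CC, CXCL8, ITPR1, AKR1B1 and the cell type markers were named after their values were seen. Some genes that the rule selects are left out. DESeq2 1.42.0, other scalings and filters, a replicate block and leaving out each library were alternatives.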

Additional observations from a re-analysis of the deposited data

How the results depend on the processing

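Among the 10 NFAT and calcineurin genes, 3 were higher and 4 lower in nearly every setting. Scaling by library totals, which moved the median of all tested genes by 0.13 and the share of higher calls from 51% to 60.9%, gave 4 higher and 3 lower, with NFAT5 added and PPP3CB lost. These counts are a description, since the genes were chosen on this contrast. A mean CPM of at least 1 removed NFATC1 and gave 2 higher. The log2 fold change of NFATC4 lay between 4.89 and 5.55 over the alternatives run.

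Scaling by library totals gave 4 lower genes among NFAT kinases and nuclear transport (9 as reported), 2 lower among calcineurin-dependent targets (4 as reported) and 5 higher among NFAT5 targets (3 as reported). Of the calcineurin-dependent targets, 1 was higher by DESeq2, 1 with no filter and 1 with a mean CPM of at least 1, in place of 2, and 2 were lower with that last filter. Leaving out 1 library gave 1 to 3 higher and 2 to 3 lower. The cause was not tested.

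With the replicate number as a block, 1 calcineurin-dependent target was higher in place of 2 and 3 were lower in place of 4, and the counts over all genes were 6927 higher and 6770 lower (7129 and 6862 without it). Deviations of same-numbered libraries correlated at 0.043, -0.077 and -0.055, so they shared no strong deviation. With 3 libraries per group these values cannot tell whether same-numbered libraries were handled together, and the labels do not say.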
